A study of Mus musculus with 29 samples.

Results

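The sites described here are the joined binding sites whose midpoint lay over 200 kb from every annotated transcription start, called far sites below. Windows of 300 bp centred on the summits of all 9 kept peak lists were joined where they shared at least 1 bp, which gave 78408 sites, and 3209 of them were far sites. The lists give the places where Atoh1, Pou4f3 or Gfi1 was bound by ChIP-seq, the sequencing of DNA precipitated with a protein, in 6 mouse embryonic stem cell lines of the A2loxCre parent. Each line carried a doxycycline-inducible cassette ending in a Venus reporter, with Atoh1 alone (iAtoh1), Pou4f3 alone (iPou4f3), Gfi1 and Atoh1 (iG+A), Gfi1 and Pou4f3 (iG+P), Pou4f3 and Atoh1 (iP+A) or all 3 factors (iGPA). Every line was grown into embryoid bodies and taken on day 6, with doxycycline (2 µg/ml) present for 48 h, so no list comes from uninduced cells. The antibodies recognised a FLAG tag on Atoh1, a MYC tag on Pou4f3 and untagged Gfi1. The 4 Atoh1 and 4 Pou4f3 lists each came from 2 ChIP libraries merged by the authors, and the Gfi1 list, from iGPA, came from 1. The models are limited in that the factors were overexpressed in unsorted embryoid bodies, that 2 of the factors carried tags and that no hair cell or inner ear tissue was examined. No list has a spread between replicates, so the 95% intervals below cover counting error alone. Neighbouring sites are not independent, so sites were not treated as replicates and no p-values are given.

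Long stretches of genome without genes are known to hold distal enhancers, regulatory elements that can act on a start far away, and such stretches often flank genes for developmental regulators. Atoh1 is a basic helix-loop-helix protein that starts hair cell and neuronal differentiation and binds E-boxes, short sequences of the form CANNTG. Pou4f3 is a POU-homeodomain protein needed for hair cell survival and binds AT-rich sequence, and Gfi1 is a zinc finger protein best known as a repressor.

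Strong far sites of each kind, chosen outside short tandem repeats, show what these places look like in sequence. The 100 bases around the summit are printed 5′ to 3′ on the plus strand of mm9, for 2 of the 4 sites with all 9 lists, those with the highest −log10 p (sites 1 and 2), the one with the highest Atoh1 fold among sites with both iGPA peaks (3), those of Atoh1 lists alone (5 and 6), those of Pou4f3 lists alone (7 and 8) and the one highest in the Gfi1 list (9), all outside tandem repeats with units of 1 to 12 bases. Capitals mark matches on either strand to the Pou4f pattern ATAATTAAT with up to 1 mismatch, to AtEAM (a longer consensus around an Atoh1 E-box), to the E-boxes CAGCTG and CAGATG, and to the Gfi1 pattern AATCACNGC.
site 1, chr7:101990858-101990957: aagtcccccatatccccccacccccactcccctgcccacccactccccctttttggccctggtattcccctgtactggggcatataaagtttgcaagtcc
site 2, chr12:42878964-42879063: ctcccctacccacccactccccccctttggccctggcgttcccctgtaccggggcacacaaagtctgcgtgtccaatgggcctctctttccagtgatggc
site 3, chr9:46806513-46806612: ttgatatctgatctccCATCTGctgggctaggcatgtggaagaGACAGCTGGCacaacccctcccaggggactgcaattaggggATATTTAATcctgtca
site 5, chr12:44073892-44073991: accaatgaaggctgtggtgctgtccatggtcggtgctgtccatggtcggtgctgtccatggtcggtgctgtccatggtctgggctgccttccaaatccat
site 6, chr13:70518218-70518317: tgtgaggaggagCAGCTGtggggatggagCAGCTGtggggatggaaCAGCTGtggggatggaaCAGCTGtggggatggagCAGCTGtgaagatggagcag
site 7, chr7:143412528-143412627: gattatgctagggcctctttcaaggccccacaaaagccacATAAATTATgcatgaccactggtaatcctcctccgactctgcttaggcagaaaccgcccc
site 8, chr8:105988785-105988884: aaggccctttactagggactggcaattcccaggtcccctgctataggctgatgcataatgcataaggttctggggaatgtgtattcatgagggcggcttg
site 9, chr12:27588593-27588692: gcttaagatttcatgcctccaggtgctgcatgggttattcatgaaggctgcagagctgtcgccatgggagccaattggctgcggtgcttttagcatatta

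Sites 1 and 2, on chromosomes 7 and 12, had peaks in all 9 lists and held none of these patterns within the 100 bases. Over their best alignment of 74 bases without gaps, 63 were identical. The central 32 bases of site 1 occurred 2330 times in the genome and those of site 2 occurred 3151 times, so in those bases the copies cannot be told apart by sequence. The central 32 bases of sites 3 and 6 to 9 occurred 1 time each, and those of site 5 occurred 2 times. Fold enrichment is the authors' ratio of the ChIP pileup at a summit to its local background. At site 1 it was 15.1 for Atoh1 in iAtoh1, 12.99 for Pou4f3 in iG+P and 2.69 for Gfi1. Site 2 lay in an intron of Immp2l, a gene for a mitochondrial peptidase, and the other sites shown lay outside every annotated gene.

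At site 3 all 3 factors had a peak in iGPA, with a fold of 7.16 for Gfi1. Site 3 lay 532 kb from the start of Cadm1, a cell adhesion gene, and had a fold of 32.1 for Atoh1 in iGPA, against 24.7 in iG+A, 10.97 in iP+A and, lowest, 7.70 in iAtoh1. Pou4f3 at site 3 had a fold of 3.52 in iGPA and 3.396 in iP+A, with no peak in iPou4f3 or iG+P, and an AtEAM match began 6 bases before the summit.

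Sites 5 and 6 had Atoh1 peaks in all 4 lines, with iGPA folds of 16.2 and 15.4. Both lay in repeats of longer units. Site 5 held 4 copies of a unit of 16 bases and none of the patterns, and site 6 held 5 copies of CAGCTG spaced by a unit of 17 bases. Sites 7 and 8 had Pou4f3 peaks in all 4 lines. Site 7, between Mki67 and Mgmt, had the highest far fold of the iPou4f3, iG+P, iP+A and iGPA Pou4f3 lists, at 51.9, 23.2, 17.3 and 42.5, with a Pou4f match that began 9 bases before the summit. Site 8, 637 kb from the start of Cdh5, had 29.0, 20.8, 15.96 and 36.1 and no match in the printed bases. Site 9, 257 kb from the start of Gm9866, had 10.3 for Gfi1, 15.8 for iGPA Atoh1 and 12.7 for iGPA Pou4f3. The highest fold of any far Gfi1 peak was 45.3, at a site that the rule for the sites shown left out.

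Far sites were sparser than other sites when counted per sequenced base. They made up 4.09% of all sites (interval 3.96 to 4.23), while 10.2% of the sequenced bases, 260.4 of 2559 Mb, lay as far from every start. This is 12.3 sites per Mb of far sequence against 32.7 sites per Mb elsewhere. All sequenced bases were counted, although the authors kept only reads of high mapping quality. The central bases occurred over 10 times in the genome at 18.3% of far sites and 11.9% of the others. The part of repeated sequence in the difference in density was not tested. The same limit holds for the other shares of bases and densities given below. Far sites lay a median of 293 kb from the nearest start, 346 of them over 500 kb away and 1 as far as 1105 kb, whereas all other sites lay a median of 9.46 kb away. The nearest values on either side of the limit were 200.04 and 199.99 kb.

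Not every far site lay in a gene desert. Of the 3209, 449 (14.0%, interval 12.8 to 15.2) lay within the body of an annotated gene long enough to hold a point over 200 kb from its starts, against 12.1% of the far bases, and 3 of the midpoints were in an exon. Gpc6, a heparan sulfate proteoglycan of the cell surface, held 20, Auts2, a neurodevelopmental regulator, held 17, and Astn2, Gpc5, Immp2l and Ryr2, the cardiac calcium release channel, held 12 each. The other 2760 lay outside every gene body, and so the sites are called far and not desert sites.

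The far share differed between the factors. It was 4.17% of the iPou4f3 peaks, 4.78% of the iG+P, 4.55% of the iP+A and 5.73% of the iGPA Pou4f3 peaks. It was 2.19% of the Atoh1 peaks of iAtoh1, 2.18% of those of iG+A, 2.70% in iP+A, 2.36% in iGPA and 2.62% of the Gfi1 peaks. Each Pou4f3 list had a higher far share than every Atoh1 list, with intervals that did not overlap, and all 9 lists lay below the share of bases.

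**Figure D1:**
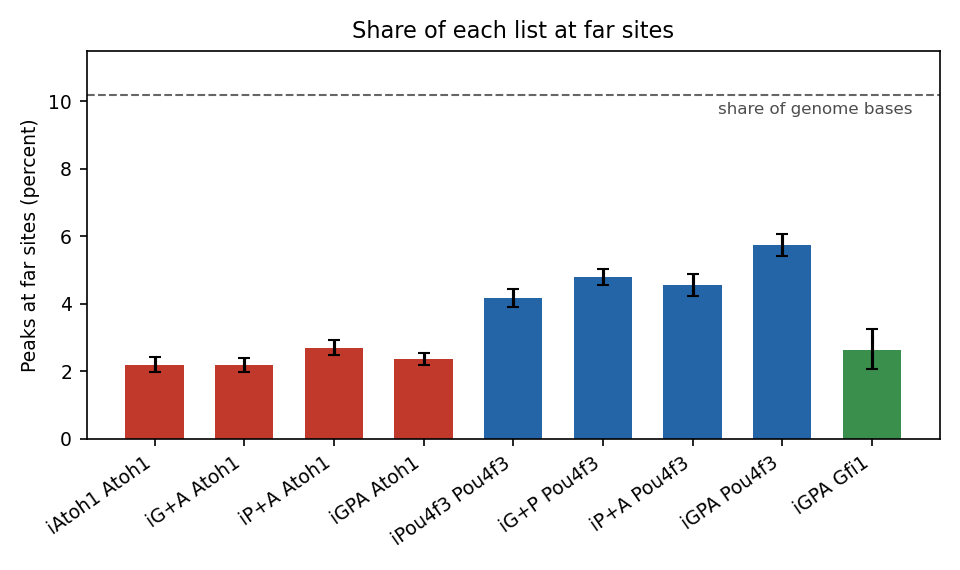
Percent of the kept peaks of each list that lie at far sites (y axis), with exact 95% intervals of counting error as bars, for Atoh1 (red), Pou4f3 (blue) and Gfi1 (green) lists, beside the 10.2% of genome bases that are as far from a start (dashed line). The Pou4f3 lists range from 4.17% to 5.73% and the Atoh1 lists from 2.18% to 2.70%.

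Far sites were mostly Pou4f3 sites. A peak in any Pou4f3 list was present at 2253 of 3209 far sites (70.2%, interval 68.6 to 71.8) and at 60.1% of all other sites, a difference of 10.1 percentage points (8.48 to 11.7). A peak in any Atoh1 list was present at 1275 far sites (39.7%, 38.0 to 41.4) and at 57.3% of the others, a difference of −17.6 points (−19.3 to −15.8). Both differences had the same sign on 18 of the 19 chromosomes with at least 20 far sites, chromosome 9 being the exception. Pou4f3 lists alone accounted for 59.2% of far sites and 41.1% of the others, and Atoh1 lists alone for 28.6% and 37.9%. By list, the far sites held more iG+P (48.1% against 40.2%) and iGPA Pou4f3 peaks (33.4% against 23.4%), whereas for iPou4f3 peaks (29.1% against 28.3%) the interval of the difference held 0 (0.85 points, −0.73 to 2.47). Outside the 5 dense runs described below, 31.2% of far sites had an iPou4f3 peak, a difference of 2.89 points (1.20 to 4.62), with the same sign on 12 of 19 chromosomes either way. All 4 Atoh1 lists were less frequent at far sites, from 10.4% against 19.5% in iAtoh1 to 19.01% against 33.2% in iGPA.

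The shares moved with distance across the whole genome and did not step at 200 kb. Atoh1 was present at 63.0% of the sites under 1 kb from a start, 56.0% at 10 to 50 kb, 45.5% at 100 to 200 kb, 40.7% at 200 to 500 kb and 32.1% beyond 500 kb (interval 27.2 to 37.3). Pou4f3 was present at 57.5% of the sites at 1 to 10 kb and rose in each further bin, to 65.2% at 100 to 200 kb, 69.5% at 200 to 500 kb and 76.3% (71.5 to 80.7) beyond 500 kb. Sites with both factors went from 27.4% under 1 kb to 10.97% and 9.54% in the far bins. The median GC content went with them, from 63.6% of the 250 bases around the summit under 1 kb to 39.2% beyond 500 kb, and its part in these shares was not tested.

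**Figure D2:**
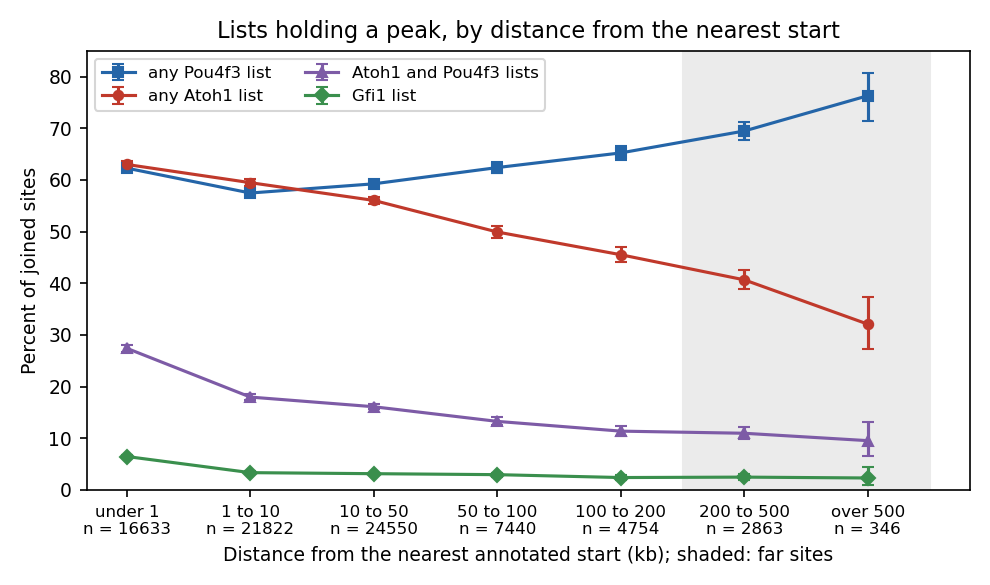
Percent of joined sites with a peak in any Pou4f3, any Atoh1, both or the Gfi1 list (y axis) in 7 bins of distance from the nearest annotated start in kb (x axis, with the number of sites), with exact 95% intervals as bars and the far bins shaded. Atoh1 is at 63.0% in the nearest bin and 32.1% in the farthest, and Pou4f3 at 62.3% and 76.3%.

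Gfi1 peaks were present at 79 far sites (2.46%, 1.95 to 3.06) and 3.87% of the others, a difference of −1.41 points (−1.91 to −0.80). The interval held 0 with peaks of −log10 p of at least 10 (−0.76 points, −1.72 to 0.50) and beyond 500 kb (−1.51 points, −2.65 to 0.68). Of the 79, 28 had a Gfi1 peak alone, 42 also had an iGPA Atoh1 peak and 33 an iGPA Pou4f3 peak. Pou4f3 was thus at 41.8% (30.8 to 53.4) of far Gfi1 sites and at 24.6% of the other Gfi1 sites, a difference of 17.2 points (6.82 to 28.3), while Atoh1 was at 53.2% and 45.0% with an interval of the difference that held 0 (−2.90 to 18.9). Over all sites, with or without Gfi1, iGPA Pou4f3 was at 33.4% of far sites and 23.4% of the others. iGPA Atoh1 was at 19.01% and 33.2%. The Gfi1 list rests on 1 library and had the lowest local background, 3.55 fragments against 5.87 to 8.30 in the other lists, and the part of this in the Gfi1 counts was not tested.

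The far sites fell into 143 of the 511 possible combinations of lists. The commonest was iG+P Pou4f3 alone, with 548 sites (17.1%, against 11.3% of the others), followed by the 4 Pou4f3 lists with no other, with 282 (8.79% against 6.44%). iG+A Atoh1 alone, iGPA Atoh1 alone and iGPA Pou4f3 alone had 195 each. Of these, iGPA Pou4f3 alone made up 6.08% of far sites and 2.80% of the others, where it ranked 11. The combination of the 4 Atoh1 lists with no other had 37 far sites, 1.15% against 3.75%.

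A single list held 1714 far sites (53.4%, 51.7 to 55.2) against 46.6% of the others, a difference of 6.82 points (5.06 to 8.58) with the same sign on 17 of 19 chromosomes. This difference was not seen among strong peaks. With peaks of −log10 p of at least 10 it was −1.96 points (−4.88 to 1.00). Atoh1 and Pou4f3 sites differed in this. Of the far Atoh1 sites, 66.1% had 1 Atoh1 list and 4.55% had all 4, against 54.3% and 10.9% elsewhere, differences of 11.8 points (9.09 to 14.4) and −6.38 points (−7.44 to −5.06). For Pou4f3 the same shares were 52.8% and 15.4% of far sites against 53.2% and 14.8% elsewhere, with intervals that held 0 (−2.50 to 1.72 and −0.86 to 2.19).

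**Figure D3:**
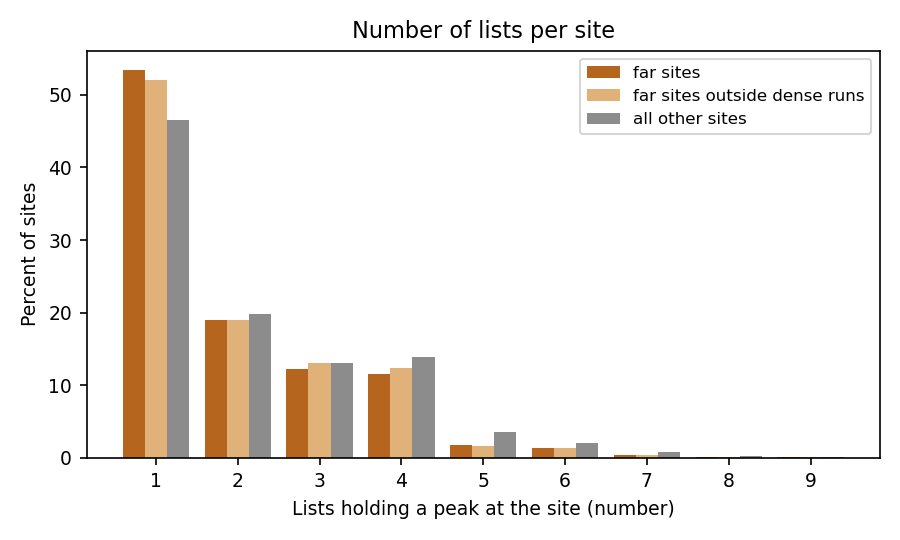
Percent of sites (y axis) by the number of lists with a peak at the site (x axis), for all far sites, far sites outside the 5 dense runs and all other sites. A single list holds 53.4%, 52.1% and 46.6% of them, and 4 far sites have all 9 lists.

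Where Atoh1 was found at a far site in iGPA, Pou4f3 was found with it more often than elsewhere. iGPA Pou4f3 peaks were also more frequent over all far sites, at 33.4% against 23.4% of the others. The shares below are not adjusted for this, and at iGPA Atoh1 sites both lay under those values. Of the 610 far iGPA Atoh1 sites, 164 had an iGPA Pou4f3 peak (26.9%, 23.4 to 30.6), against 15.7% of the 24931 others, a difference of 11.2 points (7.78 to 14.9) with the same sign on 14 of 16 chromosomes. In iP+A the shares were 26.4% and 24.2%, with a difference of 2.25 points (−1.45 to 6.31). Seen from Pou4f3, 15.3% of the far iGPA Pou4f3 sites had Atoh1 against 22.3% of the others. Over all lists, sites with both factors were 10.8% of far sites and 18.6% of the others, a difference of −7.75 points (−8.82 to −6.60), which with the 3000 strongest peaks of each list was 3.65 points (1.05 to 6.96).

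To see which lines shared these sites, the 148 far sites that carried Atoh1 and Pou4f3 in iGPA but lacked an iAtoh1 peak were followed in the lines with 2 factors. Atoh1 was present in iP+A, with Pou4f3 but no Gfi1 cassette, at 106 of them (71.6%), and in iG+A, with Gfi1 but no Pou4f3 cassette, at 7 (4.73%). The difference was 66.9 points (58.0 to 73.9): 100 sites had the iP+A peak alone, 1 the iG+A peak alone, 6 both and 41 neither, and iP+A was higher on each of the 14 chromosomes with at least 5 such sites. At the 3044 other sites chosen in the same way the shares were 58.1% and 12.5%, a difference of 45.5 points (43.4 to 47.6). Far sites were thus higher in iP+A by 13.5 points (5.61 to 20.4) and differed in iG+A by −7.82 points (−10.5 to −2.98). Pou4f3 had a peak in iPou4f3 or iG+P, the lines with no Atoh1 cassette, at 82 of the 148 (55.4%, 47.0 to 63.6) against 66.2% of the 3044. The sites were chosen to have an iGPA Pou4f3 peak and to lack an iAtoh1 peak. iG+A is the other Atoh1 line without a Pou4f3 cassette, so this choice can itself lower the iG+A share. The difference between iP+A and iG+A is therefore not a test of either factor. Because the lists are thresholded and differ in depth, a missing peak is not a measured absence.

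The Pou4f pattern was held by 1277 far sites in the 250 bases around the summit (39.8%, 38.1 to 41.5) and by 24.1% of the others, a difference of 15.7 points (14.0 to 17.4). In windows of the same length 1000 bases to either side it was held by 14.1% and 9.27%, so the share over the flanks was 25.7 points at far sites and 14.8 at the others. Its 9 bases without mismatch were held by 8.51% and 3.84%. The pattern is AT-rich and far sites had a median GC content of 40.8% against 47.2%. Within GC bands of 5 points the difference was 2.74 points (1.16 to 4.32): at 30 to 35% GC the shares were 70.1% and 60.5%, and at 40 to 45% they were 31.8% and 34.8%. Of the far sites with a match, 42.9% also held TAATTA, whose letters lie within the pattern.

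Among far sites the pattern followed the factor. It was held by 58.3% of those with Pou4f3 lists alone (flanks 15.5%), 66.0% of those with all 4 Pou4f3 lists, 30.3% of those with both factors (10.1%) and 6.43% of those with Atoh1 lists alone (12.6%). For Pou4f3 lists alone and for both factors it was more frequent than at other sites of the same class, by 11.7 points (9.43 to 14.0) and 14.6 points (9.94 to 19.6), with GC content not held equal. Even the 548 sites of the iG+P list alone held it in 45.4%.

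E-boxes were frequent at the Atoh1 sites. Over all sites CAGCTG was held by 17.9% of far sites and 25.5% of the others, and CAGATG by 25.5% and 27.2%. At far sites with Atoh1 lists alone, CAGCTG was held by 37.0% (flanks 7.68%), CAGATG by 43.4% (18.3%) and AtEAM by 22.5% (2.78%). At the 58 far sites with all 4 Atoh1 lists, with or without other lists, they were held by 62.1%, 51.7% and 27.6%. The other sites with all 4 Atoh1 lists held them at 59.5%, 46.0% and 23.8%, so CAGCTG was not less frequent at far sites of this class. With Atoh1 lists alone, CAGCTG was less frequent at far sites than at the other Atoh1-alone sites, 45.9%. This difference was −8.88 points (−12.0 to −5.66), but with the same sign on 9 of 16 chromosomes alone. AtEAM was more frequent than there, 18.7%, by 3.87 points (1.25 to 6.72), with the same sign on 12 of 16, and CAGATG was at 42.5% there with an interval of the difference that held 0 (−2.41 to 4.09). Without regard to class, AtEAM was held by 8.63% of all far sites and 8.95% of the others (difference −0.32 points, −1.26 to 0.73), of far matches 91.7% in windows that also held CAGCTG or CAGATG, which can be part of it. CATATG was at 8.85% of far sites and 8.83% of their flanks. At far sites with both factors the E-boxes were more frequent than at the other sites with both, with GC content not held equal. CAGCTG was at 28.5% against 22.6% (5.90 points, 1.35 to 10.9), CAGATG at 32.6% against 23.7% (8.82 points, 4.05 to 14.0) and AtEAM at 10.7% against 6.30% (4.36 points, 1.50 to 8.07). The signs held on 4, 3 and 4 of 6 chromosomes.

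The Gfi1 pattern was held by 1 of the 79 far Gfi1 sites (1.27%, 0.032 to 6.85) and by 211 of the 2912 others (7.25%), a difference of −5.98 points (−7.42 to −0.35). These far Gfi1 sites held CAGCTG at 30.4% (flanks 8.86%) and the Pou4f pattern at 21.5% (12.0%). The other Gfi1 sites held CAGCTG at 24.5%, with an interval of the difference that held 0 (5.89 points, −3.28 to 16.9). They held the Pou4f pattern at 11.9% (9.64 points, 1.91 to 20.0), with GC content not held equal. Over all far sites the Gfi1 pattern was at 0.87%, the octamer ATTTGCAT at 3.02% (flanks 2.98%), TGANTCA at 7.35% (7.53%) and GGAATG at 12.0% (13.1%), and over all other sites at 0.80%, 1.78%, 6.73% and 13.03%.

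**Figure D4:**
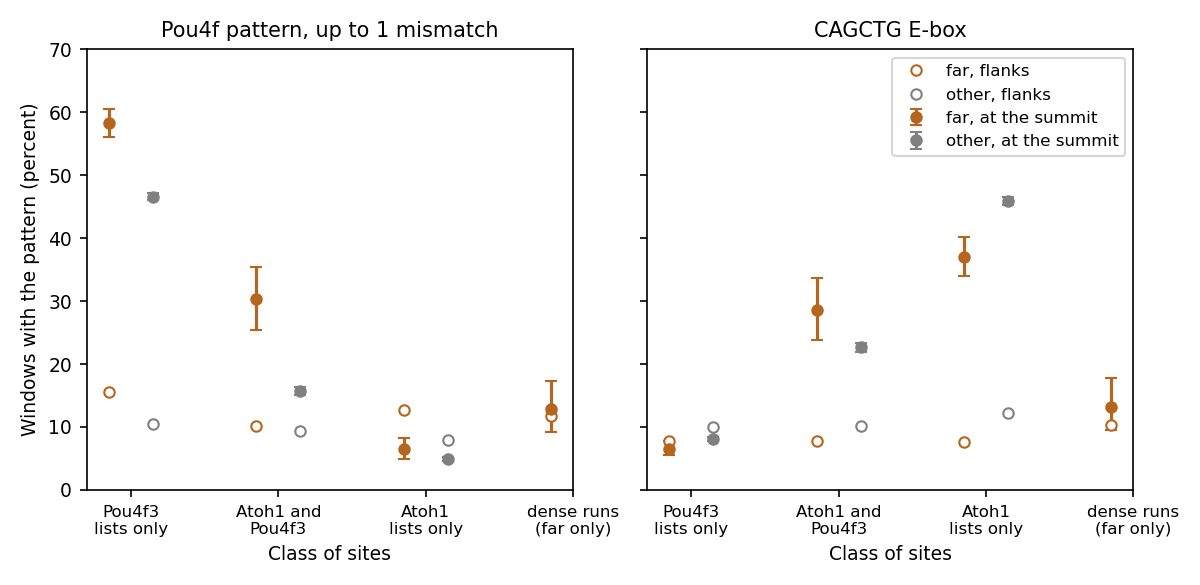
Percent of 250-base windows with the Pou4f pattern (left) or the CAGCTG E-box (right) (y axis) in 4 classes of sites (x axis), far sites in brown and all other sites in grey, with filled points at the summit, exact 95% intervals as bars and open points in the windows 1000 bases to either side. Far sites of Pou4f3 lists alone hold the Pou4f pattern at 58.3% and those of Atoh1 lists alone hold CAGCTG at 37.0%, while in the dense runs both are near the flanks.

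Far sites were uneven along the genome, and 5 short runs held many weak ones. A run was a set of at least 10 far sites, each within 10 kb of the next, a rule set after the spacing was seen. The 5 runs held 287 far sites (8.94%). The largest, chr9:46672576-46966334 between 4931429L15Rik and Cadm1, held 169 in 293 kb, and chr6:130732477-130868436 between Klra1, a natural killer cell receptor gene, and Gm5581 held 69 in 136 kb. The others, on chromosomes 6, 12 and 13, held 18, 18 and 13. Of the run sites 66.9% had a single list, 70.4% had Atoh1 and 48.8% had Pou4f3, against 52.1%, 36.7% and 72.3% of the 2922 far sites outside. The median of the highest fold per site was 2.85 in the runs and 3.34 outside, and the Pou4f pattern was held by 12.9% (flanks 11.7%) against 42.4%.

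The runs were not alike in sequence. The central 32 bases occurred 1 time in the genome at 97.0% of the sites of the large chromosome 9 run, at 34.8% of the Klra1 run, at 69.2%, 27.8% and 11.1% of the other 3 and at 75.4% of the far sites outside. The recovered local background was over 2 times the usual value of its list for 0.61% of the peaks in the runs and 0.70% outside. In the chromosome 9 run the iG+P Pou4f3 list had 52 sites and the iG+A, iGPA, iAtoh1 and iP+A Atoh1 lists had 46, 38, 34 and 28. Site 3 lies within it, with 7 lists and a fold of 32.1, among 126 single-list sites. The part of repeated sequence and of weak peaks in the runs was not tested. Outside the runs the differences from all other sites were −20.6 points for Atoh1 and 12.2 for Pou4f3, each with the same sign on 19 of 19 chromosomes, and 18.4 for the Pou4f pattern.

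**Figure D5:**
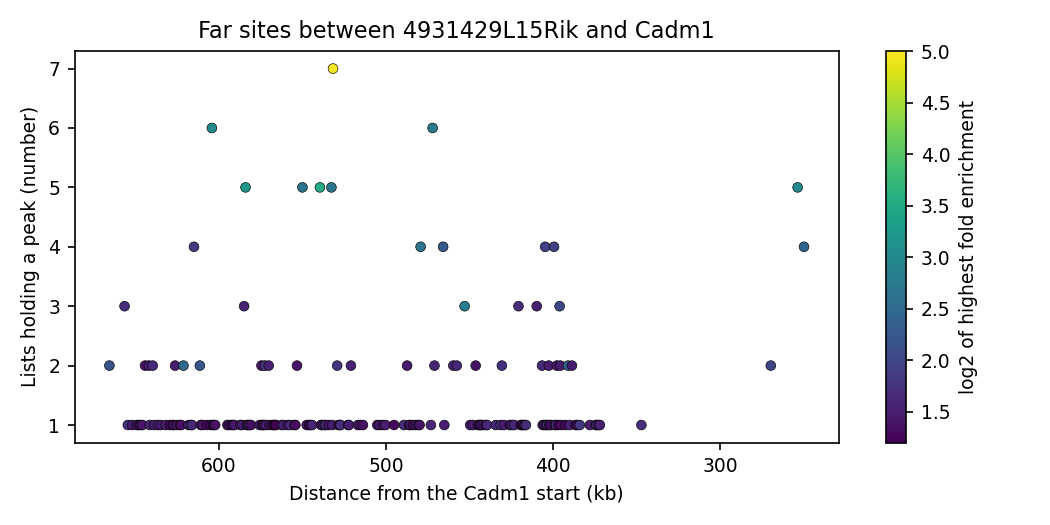
Number of lists with a peak (y axis) at each of the 173 far sites between 4931429L15Rik and Cadm1, by distance from the Cadm1 start in kb (x axis), coloured by the log2 of the highest fold enrichment at the site. Of the 173, 127 have a single list, and the 1 site with 7 lists lies 532 kb away.

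The genes nearest to far sites were named from protein-coding starts alone, and nearest does not mean regulated. The 15 with the most were led by the genes beside the runs: Cadm1 with 141, Gm5581 with 67, 4931429L15Rik with 32 and BC048507 with 25, then Tbl1xr1, a corepressor subunit gene, with 22, and Gm10479 and Samd9l with 21 each, of which 18 each lay in runs. Rbfox1, a splicing regulator, had 20, the contactin-related Cntnap5a 19, and Auts2, Cntn5, Gm9726, Gpc6, Mtrr and Pcdh9 18 each, none of them in runs. Cntnap5a, Cntn5 and Pcdh9 are adhesion genes of neurons. The 5 stretches between neighbouring protein-coding starts with the most far sites were 4931429L15Rik to Cadm1 (173), Klra1 to Gm5581 (81), BC048507 to Mtrr (43), Nmbr to Cited2 (28) and Gm10110 to Pcdh9 (27). They held 349, 251, 134, 14.4 and 13.6 far sites per Mb of far sequence, so the last 2 were close to the mean of 12.3.

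Developmental transcription factors had more far sites than their share of far sequence. Of the far sites, 194 (6.05%, 5.25 to 6.93) were nearest to a member of this list of 347 genes, while 3.65% of the far bases were, a difference of 2.40 points (1.60 to 3.28), with sites above bases on 13 of 19 chromosomes. These are 20.4 sites per Mb against 12.3 for all far sequence, and none of the 194 lay in a run. Of the other sites 3.18% were nearest to a member. Beyond 500 kb the difference from bases was 0.35 points (−0.49 to 2.13). The 194 were spread over 41 genes, with Pou4f3 at 67.5%, Atoh1 at 43.8% and a single list at 44.3%. Over all far sites these shares were 70.2%, 39.7% and 53.4%.

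The members with the most were Sox6, a SoxD factor, with 16, then Nr4a2, a nuclear receptor of dopamine neurons, and Trps1, a GATA-type repressor, with 12 each. Sox2, a factor of pluripotent and sensory progenitor cells, had 9, Zfp703, a zinc finger factor, had 8, and Nr2f1, Sall3, Satb1 and Zeb2 had 7 each. At Sox6 the sites lay 220 to 433 kb from the start, and 10 of them within its own gene. One of these, chr7:122712353-122712704, had all 4 Atoh1 lists, an AtEAM match and a highest fold of 5.29, and another, chr7:122725795-122726108, had all 4 Pou4f3 lists, a Pou4f match and 13.7. Beside Sox6, chr7:122590088-122590939 had all 4 Atoh1 lists with iP+A and iGPA Pou4f3, at a highest fold of 10.6, but no Pou4f, AtEAM or CAGCTG match.

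At Nr4a2 the sites lay 518 to 832 kb away, and 4 of the 12 had all 4 Pou4f3 lists. Of these, chr2:56444808-56445151 had Atoh1 in iP+A and iGPA as well, but no Pou4f, AtEAM or CAGCTG match. Nr2f1, which encodes COUP-TF1, had 7 sites, the strongest of which, chr13:79076867-79077207 at 738 kb, had 6 lists and a highest fold of 23.6, again with Atoh1 in iP+A and iGPA alone, and it held a Pou4f and a CAGCTG match. All 7 Zeb2 sites had Pou4f3 and none had Atoh1, 6 of them at 1752 to 1834 kb. Over all far sites 70.2% had Pou4f3 and 39.7% had Atoh1. The stretch from Sox2 to Atp11b held 25 far sites, or 37.3 per Mb of far sequence. Of these, 9 were nearest to Sox2, at 300.0 to 505 kb, and the site with the most lists, chr3:35304551-35304912, lay nearer to Atp11b and had the 4 Pou4f3 lists with iGPA Atoh1 and a highest fold of 10.6.

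Developmental signals were nearest to 32 far sites (0.997%, 0.683 to 1.40) against 1.37% of the far bases, an interval that held that value. Bmper, a BMP-binding protein, had 5, Wnt5a had 4, and Bmp2, Fgf20, Fgf9, Fstl5, Inhba and Tgfb2 had 3 each, with Dkk2 at 1. All 4 Wnt5a sites had Pou4f3 and none had Atoh1, and chr14:29036527-29036853, within the Erc2 gene, had all 4 Pou4f3 lists and a fold of up to 8.30. None of the 32 sites had both factors. Over all far sites 10.8% had both, 70.2% had Pou4f3 and 39.7% had Atoh1, so these small counts are not read as traits of the genes.

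Genes of axon guidance and neural adhesion were nearest to more far sites, 386 (12.0%, 10.9 to 13.2), but to 15.8% of the far bases, a difference of −3.76 points (−4.87 to −2.59). Among all other sites 1.86% were nearest to a member. Their far sites were 9.39 per Mb. Cntnap5a had 19, Cntn5 and Pcdh9 18 each, Pcdh17 and Robo1 17 each, Pcdh7 16, Lphn3 15, Slit2 14 and Cdh9 and Lsamp 13 each. Pou4f3 was at 76.7% of the 386 and Atoh1 at 31.6%, against 70.2% and 39.7% of all far sites. At Slit2, the repellent ligand of Robo receptors, 11 of 14 sites had Pou4f3, and the farthest, chr5:47323576-47323909 at 1051 kb, had 6 lists with a highest fold of 7.14. At Robo1, 14 of 17 sites had Pou4f3, and chr16:73202208-73202585 had 5 lists, with Atoh1 in iP+A and iGPA.

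Hair cell genes were nearest to 4 of the 3209 far sites (0.125%, 0.034 to 0.319) and to 0.042% of the far bases. The difference of 0.082 points had an interval that held 0 (−0.0084 to 0.276), and the 4 sites are 36.3 per Mb of their little far sequence. Ikzf2, which encodes a zinc finger factor of outer hair cells, had 3, at 212 to 241 kb. Of these, chr1:69503247-69503553 had 7 lists, all 4 Atoh1 lists with Pou4f3 in iG+P, iP+A and iGPA, at a highest fold of 4.82. It held no Pou4f, AtEAM or CAGCTG match. A second, chr1:69520820-69521135, had Atoh1 in iG+A and iGPA with AtEAM and CAGCTG matches, and the third, chr1:69491214-69491556, had Pou4f3 in iPou4f3 and iG+P with a Pou4f match. Pcdh15, a protocadherin of the tip link, had 1 site, in the iG+P list alone.

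Far peaks were about as strong as other peaks of the same list. The median fold was 4.22 for far iGPA Pou4f3 peaks against 4.08 for the others, with quartiles of 3.495 to 5.83 against 3.35 to 5.83, and 3.57 against 3.33 in iPou4f3. For Atoh1 it was 3.57 against 3.45 in iGPA, 3.12 in both in iP+A, 3.07 against 3.24 in iG+A and 3.05 against 3.18 in iAtoh1. The highest far folds were below those of the other peaks in every list, for example 32.1 against 72.1 for iGPA Atoh1. Far peaks were much fewer, 619 of the 26231 iGPA Atoh1 peaks, and a smaller group tends to have a lower maximum, so this says little about strength. A local background over 2 times the usual was found for 0.37% to 1.57% of the far peaks of the Atoh1 and Pou4f3 lists. Among the other peaks of these lists it was found for 0.72% to 1.81%. In the Gfi1 list the shares were 7.59% of the far and 5.80% of the other peaks. Of the far sites, 1.40% lay in a short tandem repeat, against 0.78% of the others.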

How the data were processed

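Peak lists of 9 combinations of line and antibody were used, from 29 libraries (17 ChIP and 12 input) grouped by their titles. Per the methods, the authors aligned trimmed reads to mm9 (Bowtie 2), kept non-duplicate reads of high mapping quality outside blacklisted regions, and ran MACS 2 on replicates merged before calling, against merged inputs; versions are not given in the sources used here. The deposited fold enrichment is the authors' ratio of ChIP pileup to local background. The deposited −log10 p is that of MACS at each summit. The deposited summit lists hold the peaks the authors kept, by a filter that was not stated, and their signal column was not used. Read totals were not used here, so depth is known only through the local background, recovered from the fold and −log10 p (tolerance 0.001, at least 99.97% of each list's peaks).

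Starts were those of all annotated transcripts of GENCODE M1 on NCBIM37, the assembly of mm9. Shares have exact Clopper-Pearson 95% intervals, differences Newcombe intervals, and paired shares Newcombe's paired interval. Patterns were searched on both strands. A tandem repeat had at least 80% of the 100 bases around the summit equal to the base 1 to 12 positions on. Central bases were the 32 around the summit, counted on both strands of the genome. Gene lists were written by hand from general knowledge. Named were 2 sites in each of 5 classes by number of lists or fold (chromosomes 1 to 19 and X, outside tandem repeats), the 15 genes nearest to most far sites, up to 10 members of each list and 5 stretches, between protein-coding starts; single sites at these genes were picked after their values were seen. Some sites (4 and 10) and list members so chosen are not reported here. Sites, lists and rules were chosen with earlier results of these data known. The scripts ran in Python 3 with numpy, pandas and scipy and were tested on simulated data. The alternatives were other distances, coding starts, sites outside gene bodies, all called peaks, stronger peaks, other windows, chromosomes left out, tandem repeats left out and other pattern settings. Leaving out the runs, and keeping only sites whose central bases occurred 1 time, were added after the data were seen.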

Additional observations from a re-analysis of the deposited data

Results flagged for a closer look

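Of the 55271 called peaks that were not in the kept summit lists, 905 lay over 200 kb from every start, and they took no part in the results above. They are 1.64% of the peaks not kept. Seen the other way, 12.5% of the far called peaks were not kept, against 24.4% of all other called peaks. By list the far share not kept ran from 3.76% in the iGPA Pou4f3 list to 33.0% in the iAtoh1 list. No control list exists against which to set these peaks.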

How the results depend on the processing

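Values are differences in percentage points, far minus other sites, or sites minus far bases for the far share and the developmental factors. Of 148 values under other settings, 140 kept the sign of the reported one. Beyond 100 kb, far share was −11.9, Atoh1 −14.9, Pou4f3 7.49 and Pou4f3 at iGPA Atoh1 sites 7.26. Beyond 500 kb, far share was −1.25, Atoh1 −24.6, Pou4f3 15.9, Pou4f3 at iGPA Atoh1 sites 16, developmental factors 0.35, Pou4f pattern 20.2 and AtEAM −1.72. With protein-coding starts, far share was −13.9. Outside gene bodies, far share was −5.41. With all called peaks, single list was 8.99, Pou4f3 6.403, both factors −10.7 and Pou4f3 at iGPA Atoh1 sites 7.19. With −log10 p of at least 10, far share was −6.46, single list −1.96, Atoh1 −20.9, Pou4f3 21.3, Gfi1 −0.76, both factors −0.26, Pou4f3 at iGPA Atoh1 sites 20.9, developmental factors 3.87, Pou4f pattern 21.2 and AtEAM −1.54. With the 3000 strongest peaks per list, far share was −6.92, single list −1.51, Atoh1 −14.9, Pou4f3 23, Gfi1 −4.52, both factors 3.65, Pou4f3 at iGPA Atoh1 sites 17.8, iP+A minus iG+A 77.8, developmental factors 5.34, Pou4f pattern 17.6 and AtEAM −1.34. With windows of 100 bp, far share was −6.46, single list 1.89, Pou4f3 12.2 and both factors −4.22. With windows of 1000 bp, far share was −5.49 and Gfi1 −1.99. On autosomes, far share was −6.60. Without mismatch, Pou4f pattern was 4.67. Any of 3 E-boxes in place of AtEAM gave −5.10. Within GC bands, Pou4f pattern was 2.74 and AtEAM 1.45. With either neighbouring gene, the developmental factors were at 3.603. With central bases found 1 time, far share was −6.25, single list 3.65, Atoh1 −19.9, Pou4f3 14.3, Gfi1 −1.93, both factors −6.29, developmental factors 3.58 and Pou4f pattern 23.6. With the dense runs left out, far share was −6.44, Atoh1 −20.6, Pou4f3 12.2 and Pou4f pattern 18.4. Leaving out the runs and repeated central bases were chosen after seeing the data. In these settings sites were left out but bases were not, so their values for far share and developmental factors compare unlike sequence. The other 5 of the 8 changes of sign were of AtEAM, whose reported difference has an interval that holds 0. The single-list difference changed sign with both choices of strong peaks, the share with both factors with the 3000 strongest, and the cause was not tested. Leaving out 1 chromosome at a time gave −6.60 to −5.71 for far share, 5.85 to 7.47 for single list, −19.3 to −15.7 for Atoh1, 9.60 to 11.45 for Pou4f3, −1.58 to −1.31 for Gfi1, −8.68 to −5.87 for both factors, 9.95 to 12.3 for Pou4f3 at iGPA Atoh1 sites, 64.1 to 70.1 for iP+A minus iG+A, 2.09 to 2.81 for developmental factors, 14.1 to 17.4 for Pou4f pattern and −0.76 to 0.08 for AtEAM. No paired analysis was possible because the peaks were called on merged replicates, and no list carries a replicate number. The lists are thresholded calls that differ in depth, so a site without a peak in a list may hold binding below that threshold.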
